A study of Mus musculus with 6 samples.

Results

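Xaf1 and the inhibitor of apoptosis proteins were examined as a set of 9 genes, Xaf1, Xiap, Birc2, Birc3, Birc5, Birc6, Naip2, Naip5 and Diablo, in mouse aortic arches. They were taken by gene name from the array's own annotation, and each probe was kept separate. This gave 14 probes of 55681 non-control probes, and all 14 were among the 38342 that were bright enough to test. Of these genes, 4 had more than 1 probe, named here upstream, middle or downstream by their order along the transcribed strand.

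The tissue came from female C57BL/6 chimeras. Every recipient was Mir21+/+ and was irradiated with 2 X-ray doses of 5 Gy inside 4 h. The control group then received Mir21+/+ marrow and the comparison group Mir21-/- marrow, and these are called wild-type (WT) and knockout (KO) here. High-fat feeding started 3 weeks after irradiation in both groups and lasted 12 weeks. There were 3 mice and 3 arrays per group, 1 arch per array. Of the treatments given to the mice only the donor marrow differed, so that smooth muscle, endothelium and other cells of the host kept Mir21. The WT arrays lay in row 1 of the slide and the KO arrays in row 2, so row and marrow genotype cannot be told apart. The age of the mice was not given in the sources used here. No probe on the array was named for Mir21, so the arrays gave no check of the donor genotype. All 7 smooth muscle, 7 endothelial and 7 fibroblast markers and all 10 macrophage markers were well above background in at least 1 group.

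Inhibitor of apoptosis proteins carry BIR domains, small zinc-binding folds. Xiap binds and blocks caspases directly, whereas cIAP1 (Birc2) and cIAP2 (Birc3) are ubiquitin ligases at the TNF receptor. Survivin (Birc5) belongs to the chromosomal passenger complex of dividing cells, Birc6 is a giant ubiquitin-conjugating enzyme, and the NAIP proteins sense bacterial ligands for the inflammasome. Xaf1 and Diablo oppose the family: Xaf1, an interferon-induced gene, was identified as a binding partner of Xiap, and Diablo leaves mitochondria during apoptosis and displaces caspases from Xiap. In atherosclerotic lesions, apoptosis of macrophages and clearance of the dead cells shape the necrotic core, and the series addressed the part of microRNA-21 in lesional apoptosis.

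The 2 Xaf1 probes are shown first because their differences between groups were unequal. They lie 5006 bases apart (start to start) on the plus strand of chromosome 11. The upstream probe covers chr11:72122169-72122228 and the downstream probe chr11:72127175-72127234, both mm9 positions as the scanner files give them. The downstream probe is given by its last 30 bases, 31 to 60, with the AATAAA hexamer, the canonical polyadenylation signal, in capitals. Whether a probe falls in an exon, an intron or an untranslated region was not analysed here.
Xaf1 upstream, plus strand: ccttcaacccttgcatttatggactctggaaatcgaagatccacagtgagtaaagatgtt
Xaf1 downstream, bases 31 to 60, plus strand: ggctccaaAATAAActtatctctgcatcct
AATAAA occurred in 3 of the 14 probes (Xaf1 downstream, Birc5 downstream and Birc6), against 10.1% of all probes on the array, searched in the printed orientation. For the microRNA absent from the donor marrow, the mature sequence in RefSeq is shown with its seed, bases 2 to 8, in capitals.
mmu-miR-21a-5p, minus strand, chr11:86584120-86584141 of GRCm38.p6: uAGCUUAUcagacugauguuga
The seed's complement in DNA letters, ATAAGCT, was in 0 of the 14 probes and in 165 probes on the array (0.296%). A probe covers 60 bases of a transcript, so this describes the probes and not the transcripts. Xaf1 and this microRNA both lie on chromosome 11. Whether the donor marrows differed in DNA sequence at or near Xaf1 was not tested.

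At the upstream Xaf1 probe the groups did not differ beyond their spread. On the scale used throughout, log2 processed signal minus the array's 75th percentile, it read 0.64, 0.62 and 0.69 in the WT arches and 0.92, 0.44 and 0.51 in the KO arches. The KO values lay on both sides of all WT values. The difference, KO minus WT, was -0.02 ± 0.18 (SE, limma, n = 3 per group, adjusted p = 0.981), with a 95% interval from -0.44 to 0.39.

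At the downstream Xaf1 probe all 3 KO arches were far above all 3 WT arches. It read -4.16, -3.73 and -4.05 in WT and -0.84, -0.82 and -1.53 in KO. In processed signal, the scanner's background-subtracted brightness, this was 22.4, 25.6 and 24.6 against 183, 218 and 82.7. The lowest of its group was KO replicate 3, which was also the dimmest array by its 75th percentile. The difference was 2.91 ± 0.24 (SE, limma, n = 3 per group), 7.54-fold, with a 95% interval from 2.35 to 3.47. Its unadjusted limma p of 3.45e-06 was the second smallest on the array, and its Benjamini-Hochberg adjusted p of 0.0662 over all tested probes missed the threshold of 0.05.

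The adjusted test called 1 probe of 38342 (0.00261%), and 0 of the 14 probes of the set. At unadjusted limma p below 0.05, 3 of the 14 were past the threshold (Xaf1 downstream, Birc5 upstream and Diablo upstream, all higher in KO), against 8.71% of all tested probes. Diablo upstream did not pass it in limma with the replicate block or without WT replicate 2 or 3 or KO replicate 2 or 3, and Birc3 downstream passed it without KO replicate 3. The 3 KO arrays were all above the 3 WT arrays at those same 3 probes, against 7.58% of all tested probes, and all below at 1, Xiap, against 6.14%. Differences were above 0 at 8 probes and below 0 at 6, with a median of 0.06 beside 0.02 over all tested probes, and 12 of the 14 were smaller than 0.5 in size. In bulk tissue, fewer cells of a type and less RNA per cell cannot be told apart.

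**Figure D1:**
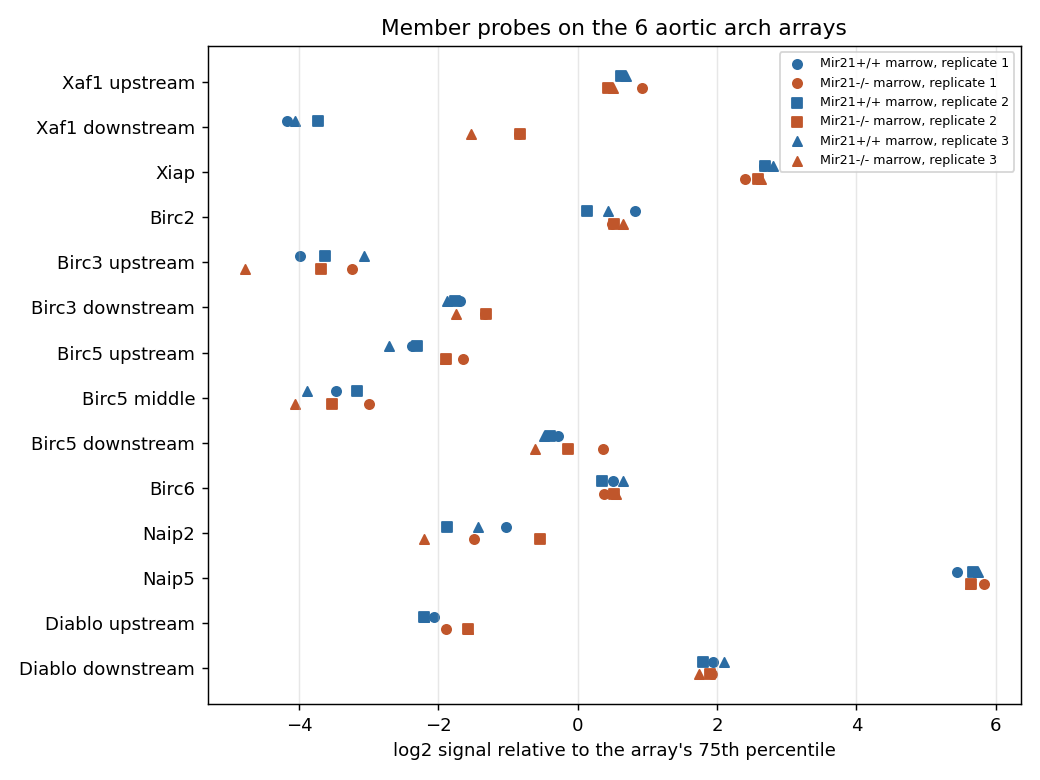
Log2 signal relative to the array's 75th percentile (x axis) of the 14 probes (y axis) on each of the 6 arrays, blue for Mir21+/+ marrow, orange for Mir21-/- marrow and a marker shape per replicate. The downstream Xaf1 probe lies between -4.16 and -3.73 in WT and between -1.53 and -0.82 in KO, while the groups of most other probes overlap.

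**Figure D2:**
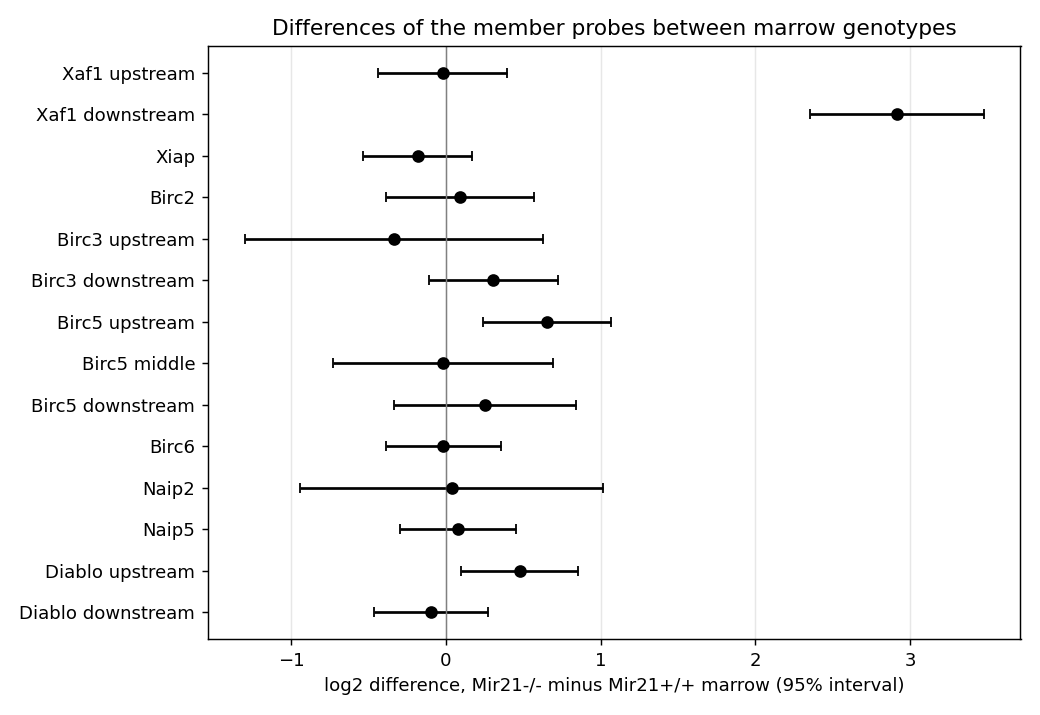
Log2 difference, KO minus WT (x axis), of each probe with its 95% interval from limma; n = 3 arrays per group. The interval of Xaf1 downstream runs from 2.35 to 3.47, and those of Birc5 upstream and Diablo upstream also lie above 0.

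The WT signals at the downstream probe were low, and the size of the difference changed with background correction and with an added offset. The raw spot brightness there was 59.3, 62.8 and 62.3 in WT and 209, 242 and 112 in KO, over local backgrounds of 40 to 44 and 32 to 42. All 6 spots were still marked well above background by the scanner software. Its own error of the processed signal was 3.56 to 3.84 in WT and 8.70 to 22.1 in KO. With normexp background correction and an offset of 50 intensity units, larger than the WT processed signals, the difference was 1.49 (limma adjusted p = 0.0365). Taken apart after these values were seen, normexp without an offset gave 2.29 (adjusted p = 0.0477), and the offset of 50 on the processed signal alone gave 1.70 (adjusted p = 0.0276). Over 17 alternative analyses it ranged from 1.49 to 3.15 and the adjusted p from 0.0227 to 0.21, and it was past the threshold in 7 of them. Its direction was the same in all 17.

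**Figure D3:**
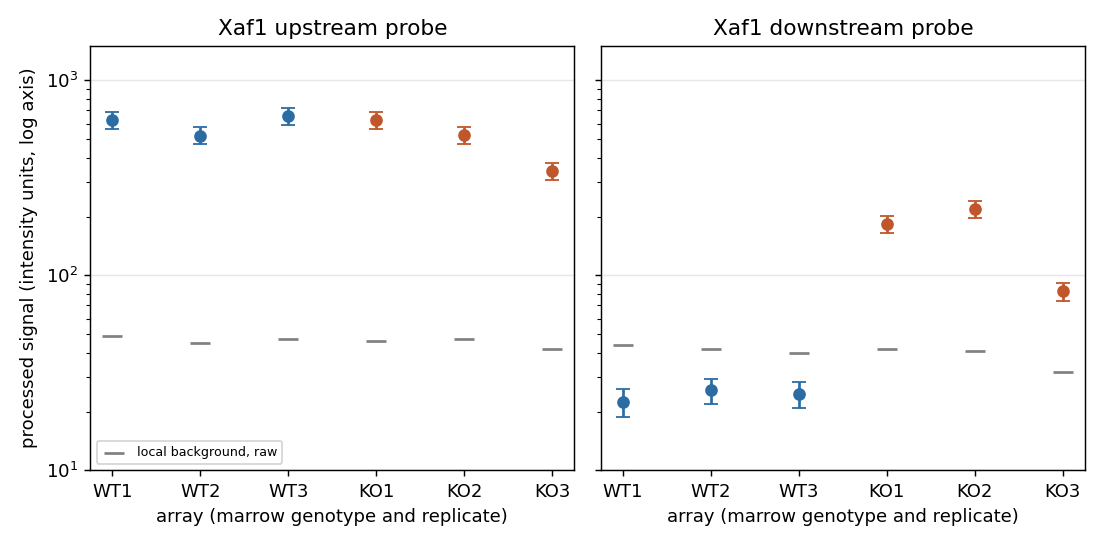
Processed signal in intensity units on a log axis for the upstream (left) and downstream (right) Xaf1 probe on each array, with the scanner software's error as bars and the raw local background as grey lines. The upstream probe lies between 341 and 657 on all arrays, whereas the downstream probe lies between 22.4 and 25.6 in WT and between 82.7 and 218 in KO.

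**Figure D4:**
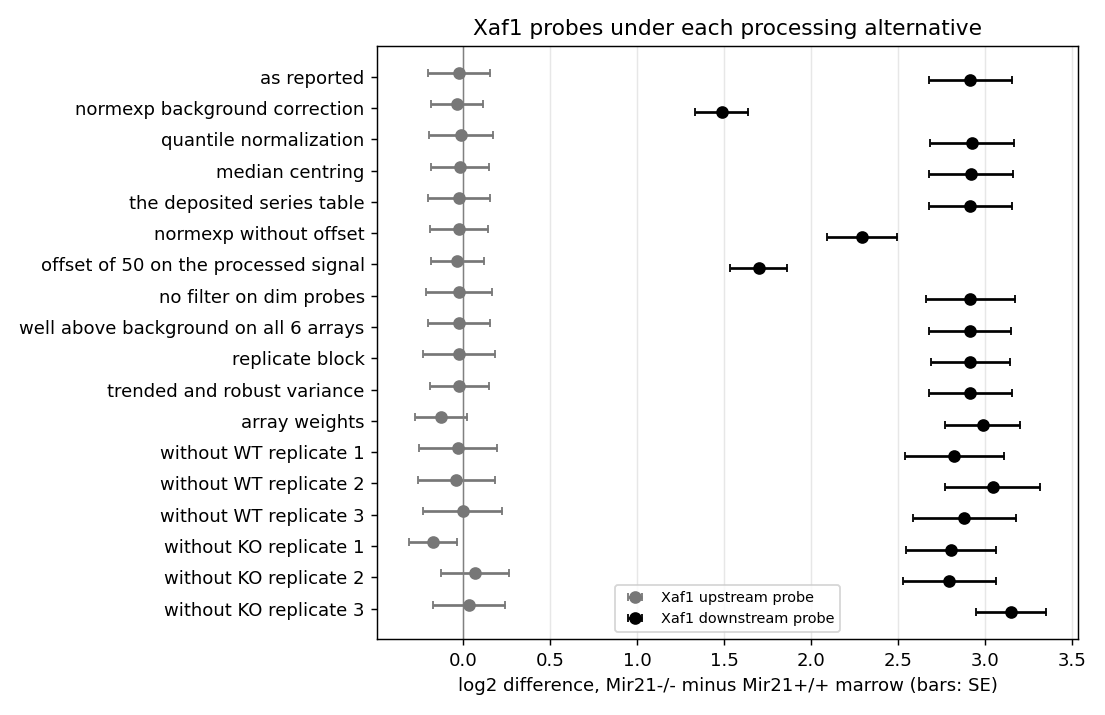
Log2 difference, KO minus WT (x axis), of the upstream (grey) and downstream (black) Xaf1 probes as reported and under each of the 17 alternatives (y axis), with bars for the SE. The downstream values lie between 1.49, with normexp background correction and an offset of 50, and 3.15, while the upstream values stay near 0.

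The unequal behaviour of both Xaf1 probes was then tested as a difference within each array. Downstream minus upstream signal was -4.80, -4.34 and -4.74 in WT and -1.77, -1.27 and -2.04 in KO. All KO arrays were above all WT arrays. The groups differed by 2.94, with a two-sided exact permutation p of 0.1, the smallest that 3 against 3 arrays allow. With normexp and the offset of 50 it was 1.52. Limma over the 3336 probe pairs of the array that share an accession was an analysis chosen after the values were seen. In it, this pair had the smallest p (2.94 ± 0.23, SE, adjusted p = 0.0341). It was the single pair called, 0.03% of those tested. Its size was the second largest, beside a median size of 0.19 over all pairs, and 7 pairs exceeded 2. The groups did not overlap, in either direction, at 21.4% of all pairs. Different probes of one gene have different brightness, so a value within a group says nothing of the amounts of any 2 transcript forms.

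The next gene downstream on the same strand, Fbxo39, was looked at after these values were seen, because its probes start only 5479 and 5684 bases beyond the Xaf1 downstream probe. One differed by 0.20 ± 0.17 (limma adjusted p = 0.764). The other differed by 0.42 ± 0.17 (limma unadjusted p = 0.0414, adjusted p = 0.564) and was higher on all 3 KO arrays, as held for 7.58% of all tested probes. Both differences were far smaller than that of the Xaf1 probe, and their relation to it was not tested.

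Marker lists of the arch's cell types are given beside the Xaf1 values as the mean log2 deviation of their genes from each gene's mean over the 6 arrays. Macrophage genes averaged 0.20, -0.51 and -0.12 in WT and 0.03, 0.90 and -0.50 in KO, with overlapping groups. White adipocyte genes averaged 0.20 to 1.18 in WT and 1.15, -1.12 and -2.30 in KO. Brown adipocyte genes averaged 0.33 to 1.03 in WT and 1.12, -1.22 and -2.17 in KO, and immature thymocyte genes 0.25 to 0.35 in WT and 0.32, -0.84 and -0.34 in KO. In all 3 of these lists KO replicate 1 lay with or near the WT arrays and the other KO arrays lay below them. Endothelial genes were the marker list whose groups did not overlap, at 0.11 to 0.22 in WT and -0.47 to 0.02 in KO. At unadjusted limma p below 0.05, 1 of 7 endothelial, 3 of 10 white adipocyte, 1 of 8 brown adipocyte and 3 of 9 thymocyte markers were lower in KO, and 1 of 10 macrophage, 1 of 7 smooth muscle and 1 of 7 cardiac muscle markers were higher. B cell, T cell, neutrophil and fibroblast markers had 0 in either direction, and 0 markers of any list passed the adjusted test. Of all 38342 tested probes, 1636 were lower and 1703 higher in KO at the unadjusted threshold, 8.71% in either direction. Pearson's r of Xaf1 downstream with the macrophage mean over the 6 arrays was 0.37 (exact permutation p = 0.489, adjusted over the 14 probes 0.786). Spearman's rho was 0.26 (exact permutation p = 0.658), and both were computed after the values were seen. The other lists were not set beside it in this way, and what part any list has in the Xaf1 result was not tested.

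Interferon-stimulated genes, the class to which Xaf1 belongs, gave no call. All 30 were tested, and 0 passed the adjusted limma test. At unadjusted p below 0.05 there were 0 higher and 1 lower in KO, against 8.71% of all tested probes in either direction. The median difference was -0.11, beside 0.02 over all tested probes. Their mean was -0.02, 0.05 and 0.23 in WT and 0.24, -0.14 and -0.35 in KO, so that the groups overlapped and KO replicate 3 was lowest. The 3 with the smallest p were Usp18, which removes the ubiquitin-like Isg15 from proteins (-0.56 ± 0.17, adjusted p = 0.482), Irf1, an interferon-induced transcription factor (-0.36 ± 0.19), and Oas3, a sensor of double-stranded RNA (-0.58 ± 0.31). The list holds Xaf1 itself, through its brighter upstream probe. A core of the interferon response element, GAAA followed by any 2 bases and GAAA again, was in 0 of the 12 RefSeq promoter windows of the 9 genes (300 bases, both strands) and in 3.44% of all windows. The E-box CACGTG, bound by the clock proteins, was in 0 of the 12 and in 7.15% of all windows, and neither absence says anything about a factor's binding elsewhere.

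Of 3574 named probes with an SD of at least 0.5 over the 6 arrays, those most like Xaf1 downstream by Pearson's r were Man1a, a mannosidase of glycan processing (r = 0.989, difference 0.95), and the olfactory receptor Olfr220 (r = 0.981, 0.95). They were followed by the thyroid hormone receptor Thra (r = 0.976, 1.05), Auts2 (r = 0.962, 1.14) and the uncharacterised F630201L12Rik (r = 0.958, 1.12). These r over 6 arrays are a description, since both groups enter them and any probe that separates the groups scores high. Within the set, r with Xaf1 downstream was 0.928 for Birc5 upstream, 0.847 for Diablo upstream, 0.798 for Birc3 downstream and -0.80 for Xiap, and between -0.39 and 0.51 for the others.

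Xiap, the caspase inhibitor that Xaf1 binds, was slightly lower in every KO arch, without passing the adjusted test. It read 2.67, 2.69 and 2.80 in WT and 2.40, 2.58 and 2.63 in KO. The groups lay close together without overlap, as held in this direction for 6.14% of all tested probes. The difference was -0.18 ± 0.15 (SE, limma, n = 3 per group, unadjusted p = 0.264, adjusted p = 0.754). Its 95% interval ran from -0.54 to 0.17. The probe lies at chrX:39462720-39462779, plus strand.

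The cIAP genes, neighbours on the minus strand of chromosome 9 whose nearest probes start 35721 bases apart, did not differ beyond the spread of the arrays. Birc2 (chr9:7818688-7818747) read 0.82, 0.14 and 0.43 in WT and 0.49, 0.52 and 0.66 in KO, a difference of 0.09 ± 0.20 (limma adjusted p = 0.920). All KO values lay inside the WT range. At Birc3, whose probes start 1753 bases apart and carry different accessions, the upstream probe (chr9:7856162-7856221) gave -0.34 ± 0.41 (adjusted p = 0.837). It was close to background and not well above it on KO replicate 3, which read -4.78 beside -3.23 and -3.68 on the other KO arrays. The brighter downstream Birc3 probe (chr9:7854409-7854468) read -1.68, -1.76 and -1.88 in WT and -1.33, -1.32 and -1.75 in KO, a difference of 0.31 ± 0.18 (adjusted p = 0.661). Its KO replicate 3 fell within the WT range while the other KO arrays were above it.

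The proteins that work with cIAP1 and cIAP2 at the TNF receptor gave no call. All 23 were tested, with 0 past the adjusted limma test. At unadjusted limma p below 0.05 there were 0 in either direction, against 8.71% of all tested probes. The median was 0.08, beside 0.02 over all tested probes. The smallest p belonged to Rbck1 (Hoil-1, a subunit of the linear ubiquitin ligase; 0.28 ± 0.16), Otulin, which cleaves linear ubiquitin (-0.24 ± 0.15), and Map3k14 (NIK, the kinase that cIAPs keep low; 0.28 ± 0.17).

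Survivin had 3 probes on the plus strand of chromosome 11, spread over 5866 bases, and they are shown because their groups overlapped at 2 of the 3. The upstream probe is annotated to a different transcript record from the others and was not tested against them. The downstream one is given by its bases 31 to 60, with AATAAA in capitals.
Birc5 upstream, chr11:117711112-117711171: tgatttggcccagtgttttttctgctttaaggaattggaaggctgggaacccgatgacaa
Birc5 middle, chr11:117714057-117714116: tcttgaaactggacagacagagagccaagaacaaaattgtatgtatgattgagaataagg
Birc5 downstream, chr11:117716978-117717037: taccacggggtaacggAATAAAatcacttg
The upstream probe read -2.38, -2.31 and -2.71 in WT and -1.65, -1.88 and -1.90 in KO. All KO arrays were above all WT arrays, as held for 7.58% of all tested probes. The difference was 0.65 ± 0.18 (SE, limma, n = 3 per group), 1.57-fold, with an unadjusted p of 0.0067 and an adjusted p of 0.445.

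The other Birc5 probes had overlapping groups. The middle probe, the dimmest, read -3.46, -3.17 and -3.88 in WT and -3.0, -3.52 and -4.06 in KO (-0.02 ± 0.30, limma adjusted p = 0.990). The downstream probe, the brightest, read -0.28, -0.39 and -0.48 in WT and 0.36, -0.14 and -0.61 in KO (0.25 ± 0.25, adjusted p = 0.793). On the middle and downstream probes, KO replicate 1 was the highest array and KO replicate 3 the lowest. The downstream minus middle contrast between groups was 0.27 ± 0.17 (limma over pairs, adjusted p = 0.511; exact permutation p = 0.3).

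Of 17 genes of the chromosomal passenger complex and of mitosis, 12 had a tested probe. None passed the adjusted limma test. Over all tested probes 8.71% had an unadjusted limma p below 0.05, and the median was 0.02. In this list 1 gene was higher and 0 lower in KO at that threshold, and the median was 0.21. The one higher was Tpx2, a spindle assembly factor (0.86 ± 0.22, unadjusted p = 0.00558, adjusted p = 0.438). Next were Ube2c, the ubiquitin-conjugating enzyme of mitotic exit (0.52 ± 0.23), and Cdca8 (borealin, a partner of survivin in the complex; 0.30 ± 0.16), while Incenp, its scaffold, differed by 0.05 ± 0.16. Aurkb, the kinase of the complex, had no tested probe, and neither had Top2a, Bub1, Cenpf and Kif11. The list's mean was 0.33, 0.11 and -0.15 in KO and -0.10, -0.10 and -0.08 in WT. The upstream, middle and downstream Birc5 probes had the same order of KO arrays, and the relation was not tested.

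Birc6 (chr17:75102259-75102318, plus strand) showed no separation of the groups. It read 0.50, 0.35 and 0.66 in WT and 0.38, 0.53 and 0.55 in KO, so that every KO value lay inside the WT range. The difference was -0.02 ± 0.16 (limma adjusted p = 0.984), with a 95% interval from -0.39 to 0.35.

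Of the NAIP genes, which sit side by side on the minus strand of chromosome 13 and are near copies of each other, Naip2 varied widely among arches and Naip5 little. Naip2 (chr13:100914212-100914271) read -1.04, -1.87 and -1.43 in WT and -1.48, -0.53 and -2.21 in KO. Its highest and lowest arrays were both KO, and the difference was 0.04 ± 0.42 (limma adjusted p = 0.986). Naip2 was set beside the macrophage markers over the 6 arrays, without passing the adjusted test. Pearson's r with the macrophage mean was 0.962 (exact permutation p = 0.00556, adjusted over the 14 probes 0.0778) and Spearman's rho 0.886 (exact permutation p = 0.0333, adjusted 0.467). Without WT replicate 2 and KO replicate 2, the arrays farthest from the median macrophage mean, r was 0.969 over the remaining arrays. These still held KO replicate 3, whose macrophage mean of -0.50 was close to the -0.51 of WT replicate 2. KO replicate 3 was also the lowest array at Naip2, so this r does not remove the weight of extreme arrays. This relation was looked for after the values were seen and does not pass the adjustment, and the groups hold too few arrays for a value within each.

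Naip5 (chr13:100981843-100981902, starting 67631 bases from the Naip2 probe) was by far the brightest spot of the set. It read 5.45, 5.67 and 5.75 in WT and 5.83, 5.65 and 5.63 in KO, a difference of 0.08 ± 0.16 (limma adjusted p = 0.911), with processed signals of 11814 to 21891. Its sequence is shown because it is the only one of the set that shares a run of at least 20 bases with another probe. Bases 18 to 47 of the probe hold in capitals the run found most often elsewhere.
Naip5, bases 18 to 47, minus strand: tggtcagGCTGGAGAGATGGCTCAGTGgtt
That run is part of the B2 short interspersed repeat, which is copied throughout the mouse genome, and it occurred in 18 of 32851 RefSeq promoter windows (0.0548%). A further 4 probes shared a run of 20 bases with the Naip5 probe, on either strand, and differed by -0.13 to 0.12 between groups. At unadjusted limma p below 0.05 there were 0 of these 4, against 8.71% of all tested probes. How much of the Naip5 signal came from other transcripts with the repeat was not tested.

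Outside the set, single tested probes of Naip6, Naip7 and Naip1 differed by 0.89 ± 0.44, -0.71 ± 0.36 and -0.34 ± 0.42 (limma adjusted p = 0.618, 0.626 and 0.836). These genes are so alike that a probe's signal may come from more than 1 of them. Of 10 genes of the inflammasome that NAIP proteins feed, 8 were tested, with 0 past the adjusted limma test. At unadjusted limma p below 0.05 there were 0, against 8.71% of all tested probes. The median was 0.10, beside 0.02 over all tested probes. The smallest p belonged to the cytokine Il18 (0.40 ± 0.21), the adaptor Pycard (0.15 ± 0.17) and the pore-forming Gsdmd (0.19 ± 0.23). Nlrc4, the direct partner of the NAIP proteins, had no tested probe, and neither had the DNA sensor Aim2.

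Diablo, the mitochondrial antagonist, was measured by 2 probes, which start 11123 bases apart on the minus strand of chromosome 5. The upstream probe (chr5:123973293-123973352) read -2.06, -2.21 and -2.20 in WT and -1.88, -1.57 and -1.58 in KO. Every KO array was above every WT array, as held for 7.58% of all tested probes. The difference was 0.48 ± 0.16 (SE, limma, n = 3 per group), 1.39-fold, with an unadjusted p of 0.0203 and an adjusted p of 0.513. The much brighter downstream probe (chr5:123962170-123962229) read 1.95, 1.80 and 2.09 in WT and 1.92, 1.90 and 1.73 in KO, with overlapping groups (-0.10 ± 0.16, adjusted p = 0.880). The downstream minus upstream contrast was -0.57 ± 0.17 (SE, limma over pairs) and missed the adjusted test. It did not overlap between the groups (exact permutation p = 0.1; limma over pairs, adjusted p = 0.247), as held for 21.4% of all pairs.

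The other antagonists and regulators of the family gave no call. All 12, Diablo's brighter probe included, were tested, with 0 past the adjusted limma test. At unadjusted limma p below 0.05 there were 0, against 8.71% of all tested probes. The median was -0.02, beside 0.02 over all tested probes. The smallest p belonged to Tle5 (0.24 ± 0.16), the tumour suppressor Rassf1 (-0.15 ± 0.16) and the deubiquitinase Usp11 (0.15 ± 0.18). Htra2, which like Diablo is released from mitochondria and binds Xiap, differed by -0.03 ± 0.19.

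Among the caspases and other proteins of the cascade that the family restrains, all 13 genes were tested. None passed the adjusted limma test. At unadjusted p below 0.05, 1 was higher and 0 lower in KO, against 8.71% of all tested probes in either direction. The median was 0.05, beside 0.02 over all tested probes. The one higher was Bid, which links death receptors to mitochondria (0.46 ± 0.18, unadjusted p = 0.0369), followed by the initiator Casp8 (0.32 ± 0.18). Casp9 differed by 0.03 ± 0.15 and Apaf1, the scaffold that activates Casp9, by 0.18 ± 0.23.

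**Figure D5:**
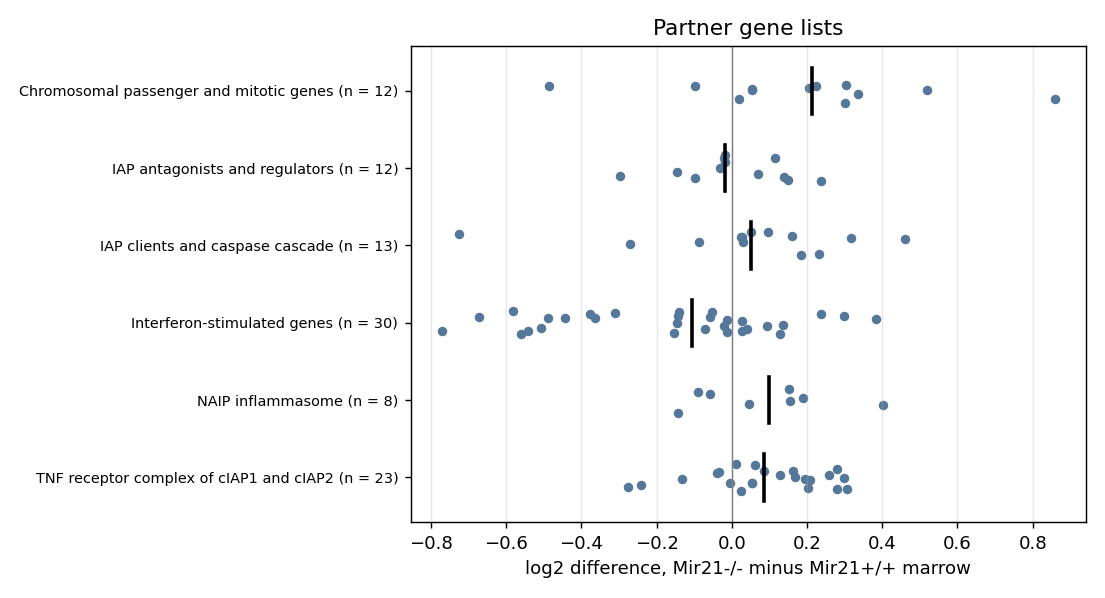
Log2 difference, KO minus WT (x axis), of the tested genes of the 6 lists of partner genes (y axis), 1 point per gene at its brightest tested probe, with the median of each list. The medians lie between -0.11 and 0.21, and no gene passed the adjusted test.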

How the data were processed

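Arch RNA (100 ng, integrity number above 7.5, labelled with Cy3) was read on 1-colour Agilent arrays. Per the file headers, Feature Extraction 10.7.3.1 gave a background-subtracted, detrended intensity with surrogates for low values, annotated on mm9. The intensity in the submitters' value table was the same to within 0.497%. Outlier spots were dropped. Log2 intensity minus each array's 75th percentile was computed, and a probe was tested if well above background on all 3 arrays of a group (the scanner software's flag in the deposited files). KO minus WT was fitted with lmFit and eBayes (limma 3.58.1, R 4.3.3), p-values being two-sided and adjusted by Benjamini-Hochberg over the 38342 tested probes. List genes were taken at their brightest tested probe, and the 3 smallest p of each list were named, except for an item that is not reported here. All members were named, with the 5 probes most like Xaf1. Members and lists were chosen with earlier results of these data known.

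Between 66.4% and 74.4% of spots were well above background, 0 were saturated, and the 75th percentile was 239 to 407. Both low ends belonged to KO replicate 3, the dimmest array. The next lowest values were 70.3% on KO replicate 2 and a 75th percentile of 329 on KO replicate 1. All arrays shared 1 slide and 1 scan, with WT in row 1 and KO in row 2, so row and marrow genotype cannot be told apart. The number of arrays limits precision. Replicate numbers did not pair the arrays (correlations of same-numbered deviations 0.12, 0.05 and -0.28).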

Additional observations from a re-analysis of the deposited data

How the results depend on the processing

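The downstream Xaf1 difference (2.91, limma adjusted p = 0.0662) passed the threshold with normexp background correction and an offset of 50 (1.49, 0.0365), normexp without offset (2.29, 0.0477), an offset of 50 on the processed signal (1.70, 0.0276), median centring (2.92, 0.0449), a trended and robust variance (2.91, 0.0272), array weights (2.99, 0.0227) and without KO replicate 3 (3.15, 0.0344). Under these 7, of which the normexp without offset and the offset alone were added after seeing the data, the count of probes of the set past the test was 1, and 0 otherwise. Leaving out each array in turn gave differences of 2.79 to 3.15, limma adjusted p-values of 0.0344 to 0.198 and a count of 0 to 1. Quantile normalization, the deposited series table, no filter, a filter on all 6 arrays and the replicate block did not bring it past the test. The difference between the Xaf1 probes was 2.72 to 3.11 without single arrays, 1.52 with normexp and offset, 2.31 with normexp without offset, 1.73 with the offset alone, and 2.94 in limma over all probe pairs, added after seeing the data (adjusted p = 0.0341). With the replicate block it was 2.94 (exact sign-flip permutation p = 0.25, the smallest possible), and the block changed no adjusted call. Without adjustment, the block left 2 of the 3 probes past the threshold, Diablo upstream being lost.

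Of 237 probe values under the alternatives, 218 kept their direction. The 19 that changed belonged to 7 probes, none at an unadjusted p below 0.05 in the reported analysis. By background correction, scaling or weights these were Birc3 upstream (0.12 with normexp and offset, 0.075 with the offset alone) and Birc5 middle (0.19 with normexp and offset, 0.14 with normexp without offset, 0.16 with the offset alone, 0.014 with quantile normalization and 0.014 with array weights). Leaving out single arrays gave -0.17 to 0.070 for Xaf1 upstream, -0.071 to 0.27 for Birc2, -0.67 to 0.10 for Birc3 upstream, -0.28 to 0.25 for Birc5 middle, -0.095 to 0.060 for Birc6, -0.40 to 0.44 for Naip2 and -0.0091 to 0.14 for Naip5. The causes were not tested. Birc3 upstream has no value under the filter on all 6 arrays. Signals close to background, as at Xaf1 downstream in WT, Birc3 upstream and Birc5 middle, limit how exactly a fold is known.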
